A study of Mus musculus with 4 samples.

Results

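Amino acid transporters of solute carrier families 1, 3, 6, 7, 36, 38 and 43 were followed in the colon of mice with and without the gene for group III secreted phospholipase A2. Members were the gene names on the array that start with Slc, one of these 7 family numbers and the letter a, taking the probe that was brightest on average where a gene had several. Of 65 such names, 62 were transporters and 3 were transcripts from the opposite strand of a transporter gene (*Slc36a1os*, *Slc6a19os* and *Slc7a6os*). A signal well above background on at least 1 array was found for 50 names, of which 49 were transporters, and for 39 names it was found on all 4 arrays. The same rule kept 17910 of the 22428 gene names on the array that matched a RefSeq gene.

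The 4 groups were Pla2g3+/+ given vehicle, Pla2g3-/- given vehicle, Pla2g3+/+ given azoxymethane (AOM) and Pla2g3-/- given AOM. AOM, a carcinogen that causes tumors of the colon in rodents, was given at 10 mg/kg each week over 6 weeks, and tissue was collected 28 weeks after dosing ended. All mice were male, 42 weeks old and littermates of the B6.129 background at backcross generation 3, and the deletion in Pla2g3-/- mice was present in all tissues. RNA of 3 to 5 mice was pooled for each group and hybridized to 1 array, and the labels name the tissue of both AOM groups as cancer tissue. Each group was therefore 1 pool of RNA, no replicate error exists, no p-value is given, and every difference below is a difference between a pair of pools.

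Amino acids cross cell membranes only through transporters, and most of these belong to the families studied here. Family 7 light chains reach the cell surface when joined to a heavy chain, *Slc3a2* or *Slc3a1*, and exchange amino acids across the membrane, whereas members of families 1, 6 and 38 use the sodium gradient and those of family 36 use protons. In the intestine, transporters of the brush border take up amino acids from the lumen, and others, such as *Slc7a7* and *Slc7a8*, pass them on to the blood. In tumors, transporters of glutamine, leucine and cystine are known for supplying growth, the mTORC1 kinase and glutathione synthesis.

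Signals are given as a percentage of the 75th percentile of all signals on the same array. Ratios of arrays are log2 differences of this signal. A ratio with ± gives the technical error that Feature Extraction, the scanner software, assigns to a pair of spots. It was 0.20 to 0.39 for the measured ratios of members and says nothing of differences between mice. Where a gene was above background on 1 array of a pair, the array without detection was given the lowest level that counted as detected there, or its own signal where that was higher, and the change is written as "at least".

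Between 64.8% and 69.4% of 43020 spots per array were well above background, and no spot was saturated. The targeted gene went against its labels, since the brightest of 3 *Pla2g3* probes gave 53.1% and 65.6% for the pools labeled Pla2g3+/+ and Pla2g3-/- with vehicle, and 23.2% and 140% after AOM. Whether these probes lie in the deleted exons is not given in the sources used here, and directions below follow the labels. All 15 markers of colon epithelium were well above background on every array. Their summed signal was 90900% and 96700% with vehicle and 39000% and 77100% after AOM, in the order Pla2g3+/+ and then Pla2g3-/-. Both AOM arrays stood apart from the vehicle arrays in some marker lists. On that of Pla2g3+/+, the sum of 10 smooth muscle markers was 3120% against 49700% to 54100% on the other 3, the sum of 11 markers of enteric neurons and glia was 84.0% against 295% to 476%, and the sum of 12 Wnt targets of colon tumors was 6930% against 1170% to 1220%. On the array of Pla2g3-/- given AOM, B and plasma cell markers summed to 2330% against 6040% to 10500% on the other 3. T cell markers summed to 213% there against 436% to 635%. Squamous epithelium markers summed to 2430% there against 579% to 684%, of which *Krt5* alone gave 1530%. Of 7 squamous markers with a ratio between genotypes after AOM, 1 was over 2-fold higher in Pla2g3-/-. Pancreatic acinar markers, of which *Ptf1a* was below background on all arrays, summed to 88.4% and 1140% with vehicle and 504% and 32.9% after AOM. Of the 504% in Pla2g3+/+ given AOM, *Pnliprp1* alone gave 435%, and 5 of the 12 markers were well above background there. In Pla2g3-/- given vehicle, 11 were. In RNA of whole tissue, fewer cells of a type cannot be told apart from less RNA per cell. The part of these marker differences in the ratios of the transporters was not tested.

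**Figure D1:**
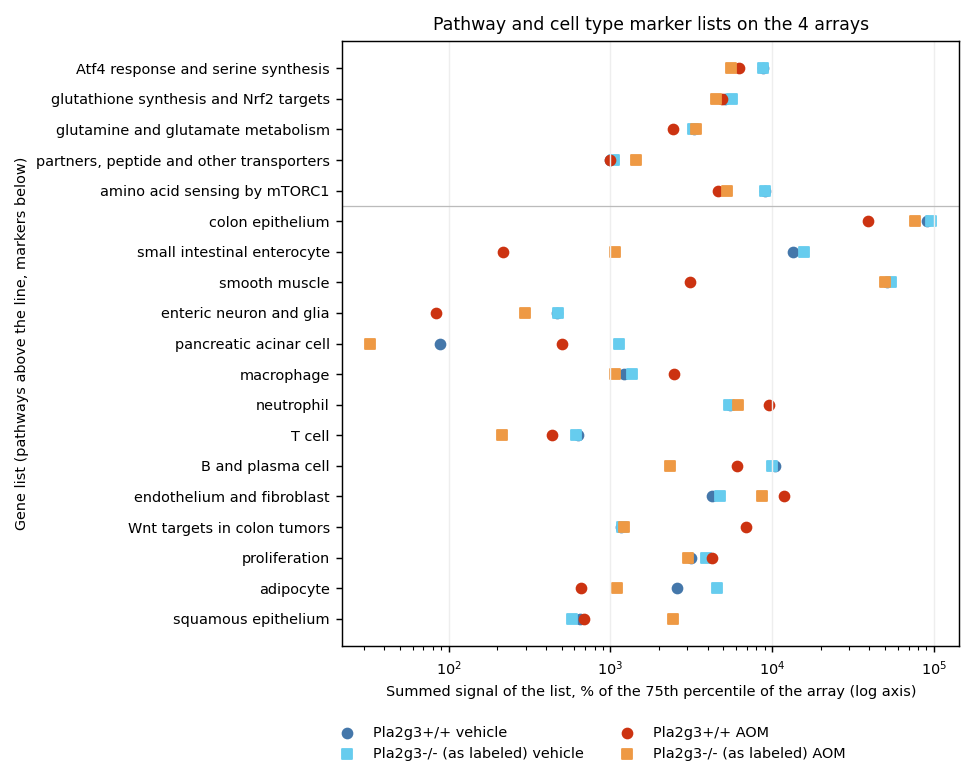
Summed signal of each pathway list (above the line) and marker list (below it) as a percentage of the 75th percentile of the array (log axis), 1 point per array and list. The Pla2g3+/+ pool given AOM (red circles) lies at 3120% for smooth muscle and 6930% for Wnt targets, apart from the other 3 arrays, and pancreatic acinar markers range from 32.9% to 1140%.

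With vehicle, the transporters of the pools labeled Pla2g3+/+ and Pla2g3-/- were close to each other. Of 46 members with a ratio, 2 were over 2-fold higher in Pla2g3-/- and 0 were lower, where 1.92% of 16416 genes were higher, 1.32% were lower and 3.23% were past 2-fold either way. Both members were dim. *Slc7a10*, a transporter of small neutral amino acids known from neurons and fat cells, gave 2.64% in Pla2g3+/+ and 5.57% in Pla2g3-/- with vehicle and was below background on both arrays after AOM. *Slc38a5*, which exports and takes up glutamine, was above background only in Pla2g3-/- given vehicle, at 4.89%, and was at least 2.77-fold higher there than in Pla2g3+/+. Both were within 2-fold under another processing, normexp background correction with an offset of 50 intensity units followed by quantile normalization. With vehicle, the summed adipocyte markers were 2570% in Pla2g3+/+ and 4590% in Pla2g3-/-, and the pancreatic acinar markers were 88.4% and 1140%. The part of either tissue in these 2 ratios was not tested. The median log2 ratio over the 45 members measured on both arrays was −0.06, with a range of −0.55 to 1.08, against −0.01 over all genes.

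After AOM the same families differed widely between the genotypes. Of 46 members with a ratio, 12 (26.1%) had over 2-fold more signal in the pool labeled Pla2g3-/- and 10 (21.7%) had over 2-fold less. Over 17224 genes, the shares were 15.1% higher, 12.9% lower and 28.0% either way. Members that were higher included the epithelial transporters *Slc6a14*, *Slc1a1*, *Slc3a1* and *Slc7a9* and the serotonin transporter *Slc6a4*. Members that were lower included the exchangers *Slc7a11*, *Slc7a8*, *Slc7a6* and *Slc7a5*. The median over the 40 members measured on both arrays was −0.10 against 0.04 over all genes. When nothing was left out for low signal, it was 0.22 against 0.18 over all genes. The sign of the members' median thus depended on the dim members, and the median of all genes rose as well. Under the same normexp setting, 7 members were higher and 6 were lower. The 2 members past 2-fold with vehicle were below background on both AOM arrays and had no ratio there.

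**Figure D2:**
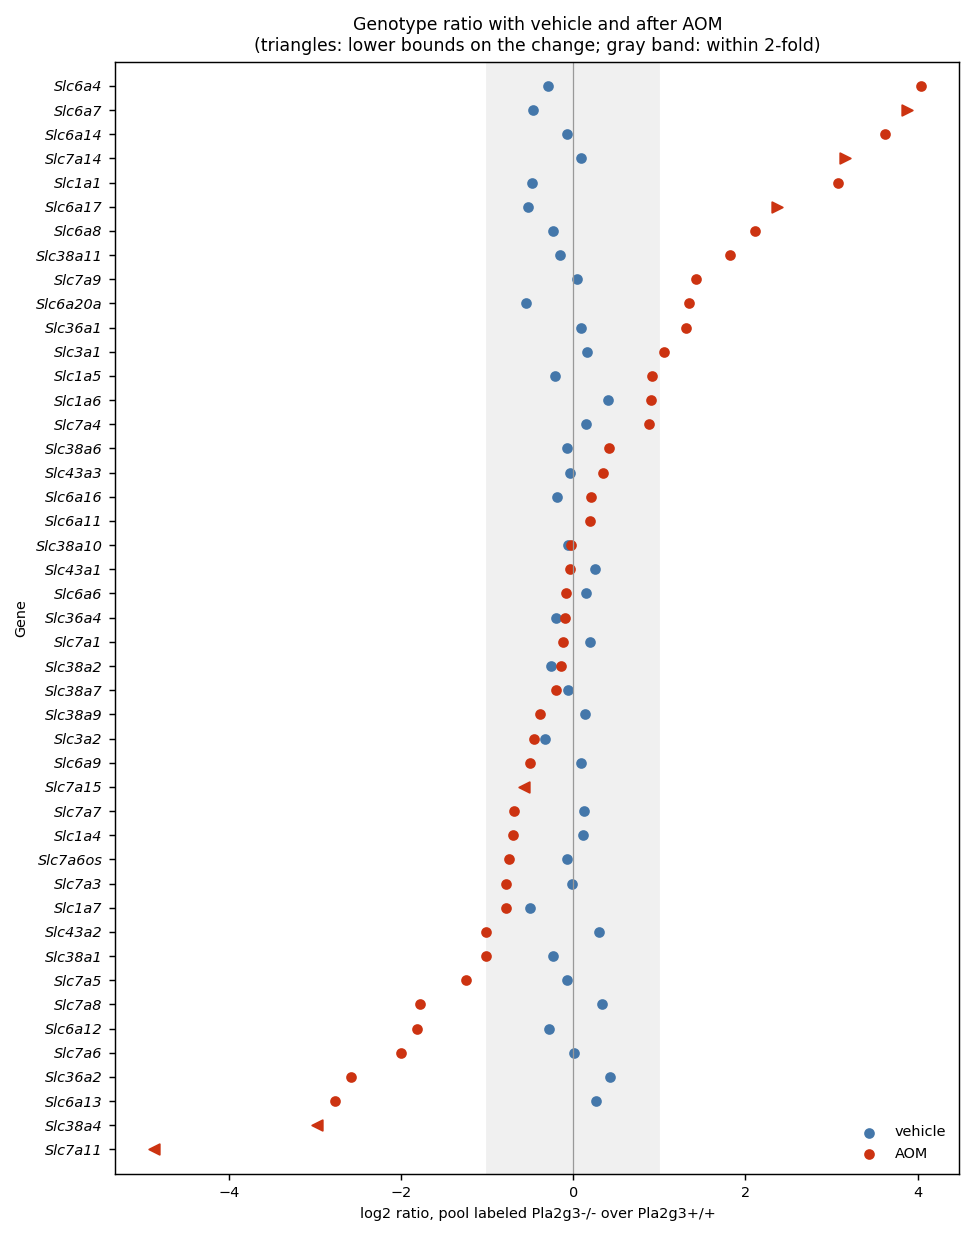
Log2 ratio of Pla2g3-/- over Pla2g3+/+ by gene for members with a ratio after AOM, with vehicle in blue and after AOM in red, triangles for ratios with a dim side set to its bound and a gray band within 2-fold. The vehicle ratios drawn lie between −0.55 and 0.43, whereas after AOM the 12 higher and the 10 lower members lie outside the band. *Slc7a10* and *Slc38a5* have no ratio after AOM and are not drawn.

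Set against vehicle, AOM was accompanied by more differences past 2-fold in Pla2g3+/+ than in Pla2g3-/-. This held for transporters (49.0% against 31.9%) and for all genes (37.5% against 24.8%), and the excess itself was not tested. In Pla2g3+/+, 9 of 49 members with a ratio (18.4%) were over 2-fold higher after AOM and 15 (30.6%) were lower, against 15.1% and 22.4% of 17306 genes, or 37.5% either way. In Pla2g3-/-, 5 of 47 (10.6%) were higher and 10 (21.3%) were lower, against 9.69% and 15.1% of 16539 genes, or 24.8% either way. The split depended on the scaling, since quantile normalization gave 14 higher and 14 lower in Pla2g3+/+, and the percentile taken over detected probes gave 14 and 13 in Pla2g3+/+ and 9 and 8 in Pla2g3-/-. Over the 46 members with both ratios, 7 were lower in both genotypes, 0 were higher in both, 11 were past 2-fold in Pla2g3+/+ only, 3 in Pla2g3-/- only, 4 went past 2-fold in opposite directions, and 21 were past it in neither. The 7 lower in both were *Slc3a1*, *Slc1a2*, *Slc1a3*, *Slc7a10*, *Slc43a1*, *Slc6a16* and *Slc38a10*, of which *Slc3a1* stayed past 2-fold in both under the normexp background correction and the other 6 did not. The counts over both genotypes were made for members only, with no share of all genes beside them. Whether transporters differ in them from other genes was not tested. The comparisons share arrays, since each AOM array enters the ratio to vehicle and the ratio between genotypes. Of the 39 members detected on all arrays, 20 (51.3%) had their highest signal in Pla2g3+/+ given AOM and 12 (30.8%) their lowest, where 28.9% and 38.1% of 14810 genes did.

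**Figure D3:**
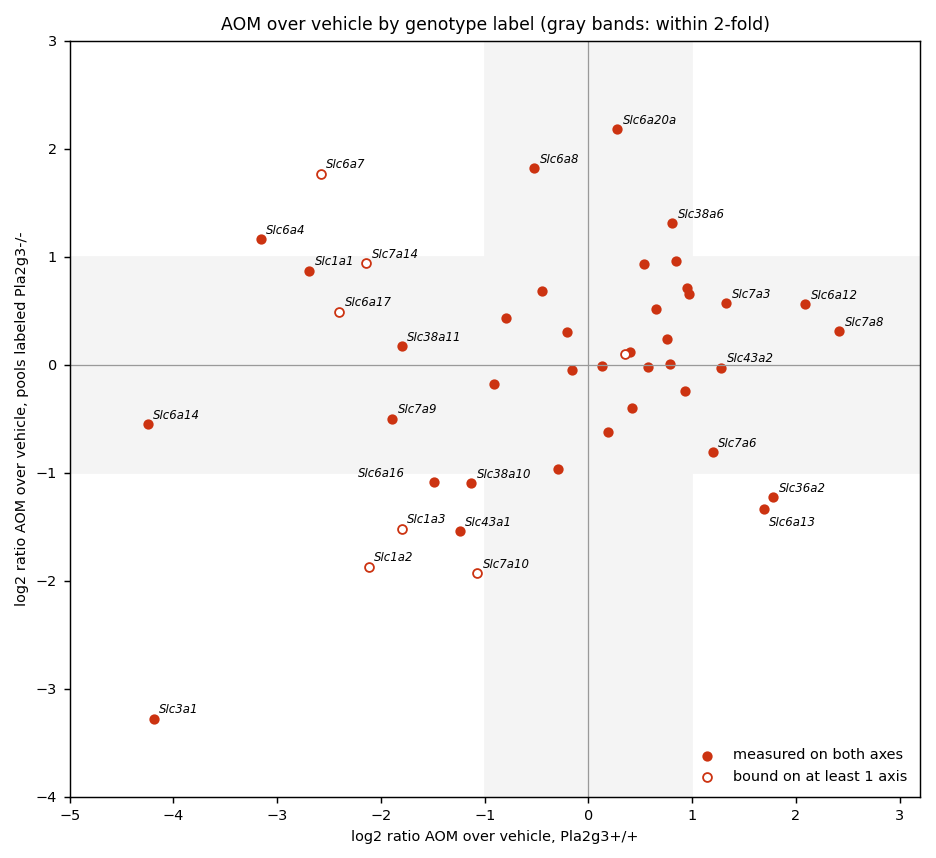
Log2 ratio of AOM over vehicle in Pla2g3+/+ (horizontal) and in the pool labeled Pla2g3-/- (vertical), 1 point per member drawn, with gray bands within 2-fold and open points for bounds. The lower left holds the 7 members lower in both genotypes, led by *Slc3a1* at −4.19 and −3.28, the upper left holds *Slc6a4* and *Slc6a7*, the lower right holds *Slc36a2* and *Slc6a13*, and no member lies outside both bands at the upper right. *Slc7a11* and *Slc38a4* have no ratio in Pla2g3-/- and are not drawn.

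**Figure D4:**
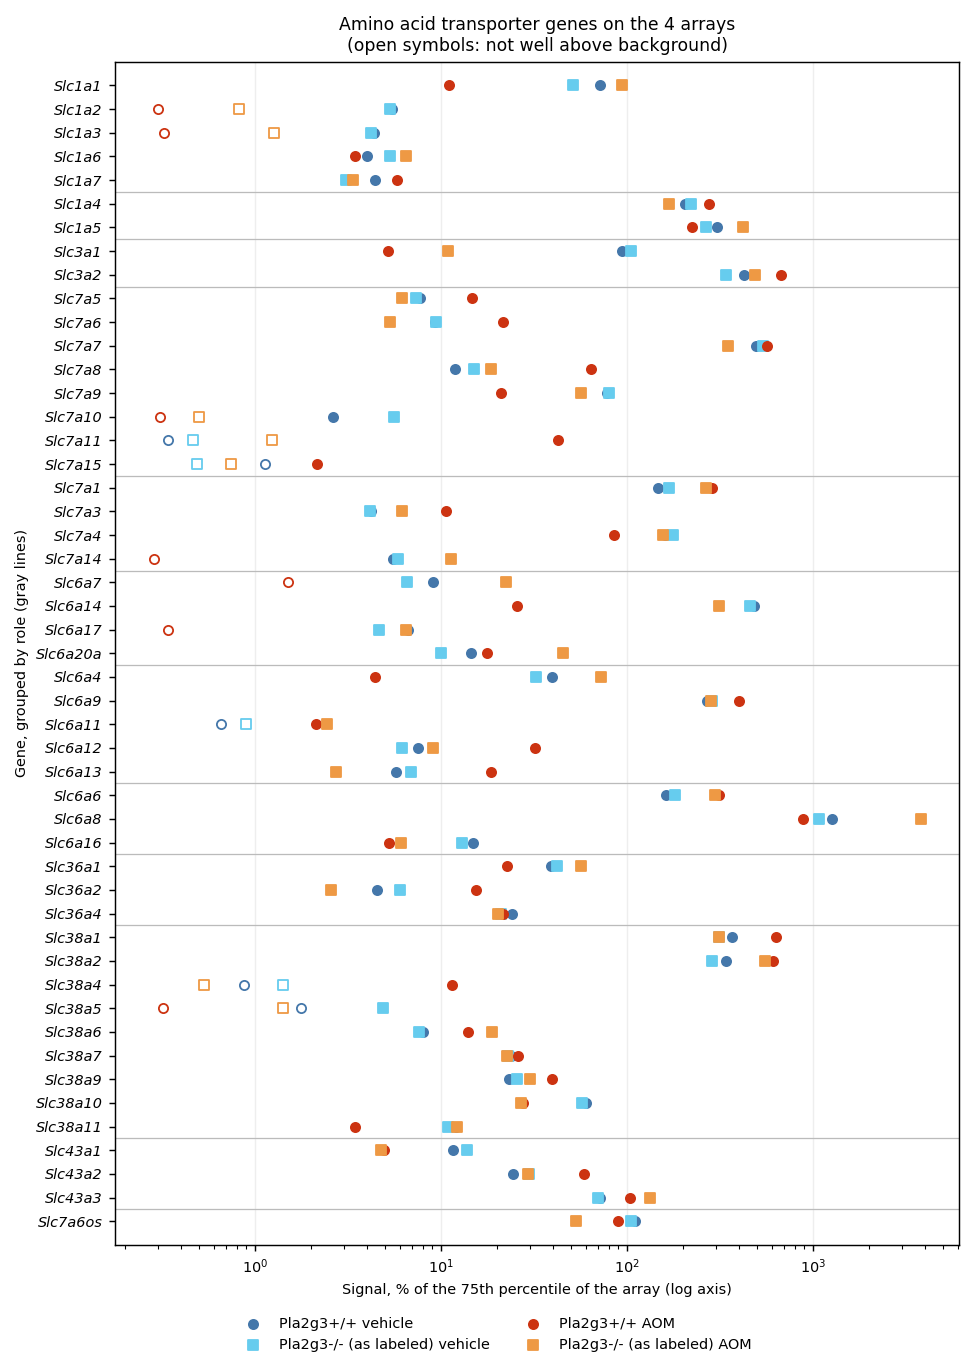
Signal of members as a percentage of the 75th percentile of the array (log axis), 1 point per array and gene, with open points for signals not well above background. The Pla2g3+/+ pool given AOM is at one end for most of the genes drawn. Examples are *Slc6a14* at 25.6% against 315% to 485% elsewhere and *Slc7a8* at 63.8% against 11.9% to 18.5%. That pool was highest or lowest for 82.1% of the 39 members detected on all arrays and for 67.0% of 14810 genes.

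The light chains and heavy chains went different ways. *Slc7a11* imports cystine in exchange for glutamate and so supplies the cysteine of glutathione. Its promoter is shown because its bounds were the largest ratios of any member in the comparisons between genotypes after AOM and between treatments in Pla2g3+/+, and because it carries 2 copies of an amino acid response element, the kind of site bound by the stress factor Atf4. Capitals in the following stretches mark matches to TGATGNAA, read on both strands from RefSeq promoters of GRCm38.p6. The *Slc7a11* stretch, chr3:50443614-50443719 on the minus strand, ends at the base before the start of transcription. The *Slc7a7* stretch, chr14:54418038-54418125 on the minus strand, is shown beside it as the other light chain with such a site. The window of *Slc7a7* holds 2 matches as well, of which the one at the start itself is not printed.
Slc7a11: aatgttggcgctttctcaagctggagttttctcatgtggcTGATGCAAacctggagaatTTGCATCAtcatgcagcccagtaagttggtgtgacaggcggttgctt
Slc7a7: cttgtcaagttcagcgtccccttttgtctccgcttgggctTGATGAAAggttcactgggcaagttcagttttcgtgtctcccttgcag
At least 1 such match lay in 3.97% of 32851 promoter windows of 250 bases before to 50 after a start, and 2 or more lay in 0.07%. Among the kept members, 39 had windows, and matches were found in *Slc7a11*, *Slc7a7* and *Slc1a4*, that is in 4 of 59 windows (6.78%). Letters of the antioxidant response element (TGACNNNGC) were in 11 of 59 windows (18.6%) against 12.4% of all windows, and those of a T cell factor site (ATCAAAG) in 5 (8.47%) against 3.73%. These are matches of letters and not measured sites.

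*Slc7a11*, probed on chromosome 3 of mm9 from 50169700 to 50169759, was well above background on the array of Pla2g3+/+ given AOM alone. Its signal was 0.339% in Pla2g3+/+ and 0.464% in Pla2g3-/- with vehicle, both below background, and 42.7% and 1.23% after AOM, the last again below background. It was thus at least 25.7-fold higher after AOM than with vehicle in Pla2g3+/+, and after AOM at least 29.2-fold lower in Pla2g3-/- than in Pla2g3+/+. *Slc7a7*, which passes cationic amino acids to the blood side and carries the element in its promoter, was within 2-fold in every comparison, with 493% and 538% under vehicle and 564% and 350% after AOM.

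By their brightest probes, further light chains were highest in Pla2g3+/+ given AOM. *Slc7a8*, an exchanger of neutral amino acids on the blood side of epithelia, gave 11.9% and 15.0% with vehicle and 63.8% and 18.5% after AOM in Pla2g3+/+ and Pla2g3-/-, a rise of 5.36-fold with AOM in Pla2g3+/+ (log2 2.42) and 0.31 on the log2 scale in Pla2g3-/-. *Slc7a6*, which exchanges cationic for neutral amino acids, gave 9.35% and 9.42% with vehicle and 21.5% and 5.36% after AOM, a 4-fold lower signal in Pla2g3-/- after AOM. *Slc7a5*, the exchanger that brings leucine into growing cells, gave 7.70% and 7.32% with vehicle and 14.7% and 6.22% after AOM, 2.36-fold lower in Pla2g3-/-. The probes of *Slc7a5* disagreed, since its other probe read 9.95% and 7.88% with vehicle and 5.98% and 5.90% after AOM. On that probe the log2 ratio between genotypes after AOM was −0.02, and Pla2g3+/+ given AOM was not the highest array. *Slc3a2*, the heavy chain that *Slc7a5*, *Slc7a6*, *Slc7a7*, *Slc7a8* and *Slc7a11* share, was within 2-fold throughout at 427% and 341% with vehicle and 671% and 490% after AOM. By the brightest probes, the signal of the common heavy chain thus varied less between arrays than that of 4 of these 5 light chains. The other probe of *Slc7a5* varied less than *Slc3a2*.

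The pair that takes up cystine and cationic amino acids at the brush border was lowest in Pla2g3+/+ given AOM. *Slc3a1*, its heavy chain, probed on chromosome 17 of mm9 from 85463142 to 85463201, gave 94.7% in Pla2g3+/+ and 105% in Pla2g3-/- with vehicle and 5.19% and 10.9% after AOM. The AOM signals lay below both vehicle signals, by 18.2-fold in Pla2g3+/+ and 9.71-fold in Pla2g3-/-. *Slc7a9*, its light chain, gave 77.8% and 79.8% with vehicle and 21.0% and 56.5% after AOM, 3.71-fold lower with AOM in Pla2g3+/+ and within 2-fold in Pla2g3-/-. Of the small intestinal enterocyte markers, the brightest, *Fabp2*, gave 13300% and 15600% with vehicle and 61.4% and 610% after AOM and made up most of the summed signal. The list as a whole was mixed, with 2 higher and 3 lower of 7 with AOM in Pla2g3+/+ and 5 higher and 3 lower of 8 in Pla2g3-/-. *Slc7a15*, the remaining light chain relative, was above background only in Pla2g3+/+ given AOM, at 2.17%.

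Among cationic transporters, *Slc7a1* was on all arrays and *Slc7a14* on 3. *Slc7a1*, the widespread importer of arginine and lysine, gave 147% and 169% with vehicle and 288% and 265% after AOM, log2 rises of 0.97 and 0.65 that stayed under 2-fold. *Slc7a3*, a relative known from brain, gave 4.22% and 4.17% with vehicle and 10.6% and 6.18% after AOM, 2.52-fold higher with AOM in Pla2g3+/+. *Slc7a14* gave 5.53% and 5.89% with vehicle and 11.3% in Pla2g3-/- after AOM, but was below background in Pla2g3+/+ given AOM. It was there at least 8.97-fold lower than in Pla2g3-/- after AOM. *Slc7a4*, related to these in sequence, was within 2-fold throughout and lowest in the same pool, at 85.6% against 157% to 178%. Of the 4 in this role, 1 was over 2-fold higher and 0 were lower in Pla2g3-/- after AOM, where 15.1% and 12.9% of all genes were.

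In family 1, 3 of 5 glutamate transporters were over 2-fold lower with AOM in Pla2g3+/+, where 22.4% of all genes were. Of these, *Slc1a2* and *Slc1a3* were dim and gave bounds. The neutral exchangers stayed within 2-fold. *Slc1a1*, which takes up glutamate and aspartate in the intestine and in neurons, gave 71.7% and 51.3% with vehicle and 11.1% and 93.7% after AOM. Only the Pla2g3+/+ AOM array was low, 6.46-fold under its vehicle array and 8.44-fold under Pla2g3-/- after AOM (log2 3.08 ± 0.21). *Slc1a2* and *Slc1a3*, the glutamate transporters of glia, were dim with vehicle, at 5.45% and 5.34% for *Slc1a2* and 4.37% and 4.19% for *Slc1a3*, and below background on both AOM arrays. With AOM *Slc1a2* was at least 4.34-fold lower in Pla2g3+/+ and at least 3.65-fold lower in Pla2g3-/-, and *Slc1a3* at least 3.48-fold and 2.87-fold lower. *Slc1a6* and *Slc1a7*, known from cerebellum and retina, lay between 3.1% and 6.5% on all arrays and within 2-fold in all comparisons.

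The neutral exchangers of family 1 varied little. *Slc1a5*, the glutamine exchanger of proliferating cells, gave 306% and 265% with vehicle and 225% and 424% after AOM, the largest ratio being 1.89-fold higher in Pla2g3-/- after AOM. *Slc1a4*, an exchanger of alanine, serine and cysteine, gave 205% and 222% with vehicle and 275% and 169% after AOM. Neither was past 2-fold in any comparison, and after AOM their ratios between genotypes had opposite signs, 0.92 and −0.70 on the log2 scale.

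Family 6 was grouped by role into transporters of amino acids and imino acids, of neurotransmitters, and others. All 4 detected members of the first role had over 2-fold more signal in Pla2g3-/- than in Pla2g3+/+ after AOM (2 of them as bounds). Over all genes, 15.1% did. With vehicle, 0 of 4 were past 2-fold. The count depends on the grouping, since *Slc6a9*, which carries glycine, was placed with the neurotransmitter transporters. Its log2 ratio between genotypes after AOM was −0.5. Under normexp background correction, *Slc6a17* and *Slc6a20a* came within 2-fold after AOM. *Slc6a14*, which takes up neutral and cationic amino acids at the luminal surface of colon and airway, is probed on chromosome X of mm9 from 21318999 to 21319058. Its signal was 485% and 462% with vehicle and 25.6% and 315% after AOM. The Pla2g3+/+ AOM array was far below the other 3, 19.0-fold under its vehicle array (log2 −4.25) and 12.3-fold under Pla2g3-/- after AOM (log2 3.62 ± 0.20), whereas AOM over vehicle in Pla2g3-/- was −0.55. *Slc6a20a*, a transporter of proline and other imino acids, gave 14.6% and 9.97% with vehicle and 17.8% and 45.1% after AOM, with the high array being Pla2g3-/- given AOM. It was 4.53-fold over vehicle there and 2.53-fold over Pla2g3+/+ after AOM. *Slc6a7*, a proline transporter of synapses, gave 9.05% and 6.55% with vehicle, was below background in Pla2g3+/+ given AOM and reached 22.3% in Pla2g3-/- given AOM, at least 14.8-fold higher. *Slc6a17*, a transporter of synaptic vesicles, gave 6.62% and 4.63% with vehicle and 6.49% in Pla2g3-/- after AOM, and was below background in Pla2g3+/+ given AOM, at least 5.16-fold lower than Pla2g3-/-. *Slc6a15*, *Slc6a18*, *Slc6a19* and *Slc6a20b* were below background on all arrays, and *Slc6a19* is the main neutral amino acid transporter of the small intestinal brush border.

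Among transporters of neurotransmitters, serotonin and the osmolyte betaine moved in opposite ways. *Slc6a4* clears serotonin and is known from the gut epithelium, nerves and platelets. Its probe (mm9, chromosome 11, 76845777 to 76845836) gave 39.7% and 32.5% with vehicle and 4.43% and 72.8% after AOM. The AOM arrays lay on either side of the vehicle arrays, with 8.96-fold lower in Pla2g3+/+ and 2.24-fold higher in Pla2g3-/-, and the ratio between genotypes after AOM was 16.4-fold (log2 4.04), the largest measured among members. *Slc6a12*, which carries betaine and GABA, gave 7.52% and 6.18% with vehicle and 32.1% and 9.13% after AOM, 4.26-fold higher with AOM in Pla2g3+/+ and 3.51-fold lower in Pla2g3-/- than in Pla2g3+/+ after AOM. *Slc6a13*, a GABA and taurine transporter, gave 5.73% and 6.91% with vehicle and 18.5% and 2.73% after AOM, 6.78-fold lower in Pla2g3-/- after AOM. *Slc6a12* and *Slc6a13* were thus highest in Pla2g3+/+ given AOM, the array on which *Slc6a4* was lowest. *Slc6a9*, the glycine transporter, was within 2-fold throughout, between 269% and 400%. *Slc6a11*, which clears GABA, was within 2-fold wherever it had a ratio, and the transporters of noradrenaline, dopamine and neuronal glycine (*Slc6a2*, *Slc6a3* and *Slc6a5*) were below background on all arrays.

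Creatine and taurine transporters were bright on every array. *Slc6a8*, which brings creatine into muscle, nerve and epithelial cells, gave 1270% and 1080% with vehicle and 885% and 3820% after AOM. The high array was Pla2g3-/- given AOM, 3.53-fold over its vehicle array and 4.31-fold over Pla2g3+/+ after AOM (log2 2.11). *Slc6a6*, the taurine transporter, gave 163% and 181% with vehicle and 313% and 297% after AOM and was within 2-fold in every comparison, with log2 rises of 0.95 and 0.71 with AOM. *Slc6a16*, a member of no settled substrate, gave 14.9% and 13.0% with vehicle and 5.29% and 6.11% after AOM, lower with AOM by 2.81-fold in Pla2g3+/+ and by 2.13-fold in Pla2g3-/-.

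In the proton-coupled family 36, the members differed. *Slc36a1*, which releases amino acids from lysosomes and takes up small neutral ones at the brush border, gave 39.3% and 41.9% with vehicle and 22.8% and 56.5% after AOM, 2.48-fold higher in Pla2g3-/- after AOM, where its other probe gave a log2 ratio of 0.28. *Slc36a2*, a transporter of glycine, proline and alanine, gave 4.51% and 6.05% with vehicle and 15.4% and 2.58% after AOM. Its signal was 3.43-fold higher with AOM in Pla2g3+/+ and 2.34-fold lower with AOM in Pla2g3-/-. *Slc36a4* stayed between 20.3% and 24.2%, and *Slc36a3*, known from testis, was below background on all arrays.

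Family 38 takes up glutamine and small neutral amino acids, and its bright members leaned upward with AOM in Pla2g3+/+ by less than 2-fold, although *Slc38a1* and *Slc38a2* were past it under quantile normalization. *Slc38a1* gave 367% and 313% with vehicle and 634% and 314% after AOM, 2.02-fold lower in Pla2g3-/- after AOM, and its 3 probes gave log2 ratios of −1.01, −0.97 and −1.08 there. *Slc38a2*, which is induced when amino acids are scarce, gave 341% and 286% with vehicle and 612% and 556% after AOM, with log2 rises of 0.84 and 0.96. *Slc38a4* was above background only in Pla2g3+/+ given AOM, at 11.5%, at least 6.91-fold over its vehicle array and at least 7.84-fold over Pla2g3-/- after AOM. Hence *Slc38a4* and *Slc7a11* shared the pattern of a signal on that array alone. *Slc38a11* ran the other way at 12.1% and 10.9% with vehicle and 3.47% and 12.2% after AOM, 3.53-fold higher in Pla2g3-/- after AOM. *Slc38a10* was lower with AOM in both genotypes, at 60.0% and 57.7% with vehicle and 27.5% and 26.9% after AOM. *Slc38a6* gave 7.97% and 7.59% with vehicle and 14.0% and 18.8% after AOM, 2.47-fold higher with AOM in Pla2g3-/-. *Slc38a7* and *Slc38a9*, both of the lysosome and the latter an arginine sensor for mTORC1, were within 2-fold in all comparisons, and *Slc38a3* and *Slc38a8* were below background on all arrays.

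Of family 43, *Slc43a1*, an exporter and importer of large neutral amino acids, gave 11.6% and 13.9% with vehicle and 4.92% and 4.77% after AOM. The gene was lower with AOM by 2.37-fold in Pla2g3+/+ and 2.90-fold in Pla2g3-/-, and its ratio between genotypes was 0.25 ± 0.22 with vehicle and −0.04 ± 0.25 after AOM. *Slc43a2*, of similar substrates, gave 24.3% and 29.9% with vehicle and 59.0% and 29.4% after AOM, 2.43-fold higher with AOM in Pla2g3+/+ and 2.01-fold lower in Pla2g3-/- than in Pla2g3+/+ after AOM. *Slc43a3*, which carries purine bases rather than amino acids, was within 2-fold throughout, at 71.7% and 69.8% with vehicle and 104% and 133% after AOM. *Slc7a6os*, on the strand opposite *Slc7a6*, was also within 2-fold and was lowest in Pla2g3-/- given AOM, at 53.3% against 89.8% to 110% elsewhere. *Slc7a2*, *Slc7a12* and *Slc7a13* of family 7 and the opposite-strand *Slc36a1os* and *Slc6a19os* were below background on all arrays.

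Partners of these transporters and other carriers of amino acids and peptides were followed as a further list. Of 13 with a ratio between genotypes after AOM, 5 were over 2-fold higher in Pla2g3-/- and 2 were lower, where 15.1% and 12.9% of all genes were, and their median was 0.19 on the log2 scale. *Slc15a1*, the peptide transporter of the intestinal brush border, gave 66.8% and 43.5% with vehicle and 6.59% and 162% after AOM, 24.6-fold higher in Pla2g3-/-. *Slc15a3*, a histidine and peptide transporter of lysosomes in immune cells, and *Slc16a10*, a carrier of aromatic amino acids, were 16.8-fold and 11.8-fold lower in Pla2g3-/- after AOM. The signals of *Slc15a3* were 9.31% and 9.93% with vehicle and 82.4% and 4.89% after AOM, and those of *Slc16a10* were 8.75%, 8.59%, 60.0% and 5.06% in the same order. The sum of 8 macrophage markers, a cell type known for *Slc15a3*, was 1210% and 1360% with vehicle and 2490% and 1070% after AOM.

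Genes of the amino acid stress response and of serine synthesis were mostly lower in Pla2g3-/- than in Pla2g3+/+ after AOM where they differed. Of 17, 7 were over 2-fold lower, 2 were higher and the median was −0.71, beside 12.9% lower, 15.1% higher and a median of 0.04 over all genes, while with vehicle 1 was lower and 0 were higher. *Atf4* itself gave 4950% and 4700% with vehicle and 3120% and 3360% after AOM, within 2-fold in every comparison. *Pycr1*, an enzyme of proline synthesis, gave 14.3% and 14.7% with vehicle and 54.8% and 3.25% after AOM, 16.8-fold lower in Pla2g3-/-. *Chac1*, which degrades glutathione, gave 134% and 40.6% with vehicle and 71.7% and 12.7% after AOM, lower in Pla2g3-/- under both treatments. *Cth* and *Cbs*, which make cysteine from homocysteine, went the other way, 6.75-fold and 2.05-fold higher in Pla2g3-/- after AOM. The signals of *Cth* were 237% and 276% with vehicle and 26.1% and 176% after AOM, and those of *Cbs* were 831%, 949%, 251% and 516% in the same order. The array on which *Slc7a11* was detected was therefore the one with the lowest *Cth* and *Cbs*. It was also the lowest for 38.1% of 14810 genes detected on all arrays, and a link between these genes was not tested.

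Of 10 glutathione genes and targets of the antioxidant factor Nrf2, 0 were over 2-fold higher and 2 were lower in Pla2g3-/- after AOM, where 15.1% and 12.9% of all genes were, and the median was −0.05. *Hmox1*, which breaks down heme, gave 34.7% and 37.9% with vehicle and 499% and 9.65% after AOM, 51.7-fold lower in Pla2g3-/-. *Ggt1*, which cleaves glutathione outside the cell, gave 30.9% and 9.61% with vehicle and 7.56% and 3.53% after AOM, 2.14-fold lower.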

How the data were processed

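Colon RNA (27.7 ng per pool) had been labeled and hybridized to 4 one-color Whole Mouse Genome arrays on 1 slide. Per the file headers, the authors deposited spot intensity from Feature Extraction 11.5.1.1, corrected for background and not scaled between arrays. Their deposited value table is a ratio, the intensity over the 75th percentile of its array, and was used as an alternative. Here control and outlier spots were left out, log2 intensities of replicate spots were averaged (39423 probes) and the 75th percentile was subtracted. Names came from the array files, of which 22428 of 30210 matched a RefSeq gene of GRCm38.p6. Probe coordinates are mm9, promoters GRCm38.p6, and whether a probe lies in an untranslated region was not determined. Some genes, though counted, are not reported here by name. No test was made, since each group was 1 array. The threshold was 2-fold, and the code that calls and bounds a ratio was tested on simulated data. Members named in full were those past 2-fold in 2 or more comparisons and the 5 highest and 5 lowest of each. A set of well-known transporters was added. Of other lists, the 2 largest rises and falls were named, and *Atf4*. Members and lists were chosen with earlier results of these data known. Alternatives were quantile and median scaling, a percentile over detected probes, normexp (offset 50, limma 3.58.1, R 4.3.3), no filter, both arrays detected, the mean or the dimmest probe and the deposited table. Python 3.11.15, pandas 2.3.3 and numpy 2.4.6 were used. The number of arrays limits the precision.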

Additional observations from a re-analysis of the deposited data

Results flagged for a closer look

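For 4 transporters, the AOM over vehicle ratio was past 2-fold in opposite directions in the genotypes. On the log2 scale, *Slc6a4* was at −3.16 in Pla2g3+/+ and at 1.16 in Pla2g3-/- (as labeled), and *Slc6a7* at −2.58 (a bound) and 1.77. *Slc36a2* was at 1.78 in Pla2g3+/+ and −1.23 in Pla2g3-/-, and *Slc6a13* at 1.69 and −1.34. With 1 array per group, the difference between the genotypes was not tested for any of them. Under normexp background correction, *Slc6a4* remained past 2-fold in Pla2g3+/+ only, at 0.88 in Pla2g3-/-, and the other 3 were within 2-fold in both genotypes, at −0.68 and 0.95 for *Slc6a7*, 0.83 and −0.36 for *Slc36a2* and 0.87 and −0.43 for *Slc6a13*.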

How the results depend on the processing

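Normexp background correction with an offset of 50 and quantile normalization lowered most counts of members past 2-fold. For Pla2g3-/- over Pla2g3+/+ it gave 0 higher with vehicle (from 2), and 7 higher and 6 lower after AOM (from 12 and 10). For AOM over vehicle it gave 8 higher and 5 lower in Pla2g3+/+ (from 9 and 15), and 3 higher and 1 lower in Pla2g3-/- (from 5 and 10). Of 61 calls of named members past 2-fold, 25 were kept under it, while the other alternatives kept 43 of 43 where both arrays were detected, 55 of 57 with the dimmest probe, 56 of 59 with the mean over probes and 57 to 61 of 61 elsewhere. None of these 61 calls changed its direction. Calls between genotypes after AOM that it brought within 2-fold were those of *Slc3a1* (0.44), *Slc6a17* (0.72), *Slc6a20a* (0.92), *Slc7a5* (−0.49), *Slc7a6* (−0.94), *Slc38a4* (−0.96), *Slc38a11* (0.78) and *Slc43a2* (−0.71). This setting put an offset of 50 intensity units on every signal, dim ones included. The part of the offset in the lost calls was not tested.

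Scaling moved the split of higher and lower members with AOM. In Pla2g3+/+ it was 14 higher and 14 lower by quantile normalization, and 14 and 13 with the percentile over detected probes. In Pla2g3-/- the latter gave 9 higher and 8 lower. The median of all genes for AOM over vehicle went from −0.16 to −0.01 and 0.03 in Pla2g3+/+ and from −0.10 to 0.01 and 0.06 in Pla2g3-/- under these scalings. By quantile normalization *Slc38a1* (1.15), *Slc38a2* (1.19), *Slc6a6* (1.13), *Slc7a1* (1.12) and *Slc3a2* (1.02) were over 2-fold higher with AOM in Pla2g3+/+.

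With no filter on dim probes, 19 members were higher in Pla2g3-/- after AOM and 1 was lower with vehicle, and 8 were higher with AOM in Pla2g3-/-. With only members detected on both arrays, 1 was higher with vehicle in Pla2g3-/-, and 9 and 6 were lower with AOM in Pla2g3+/+ and Pla2g3-/-. No paired analysis was possible because each group was 1 array and the labels give no replicate numbers. No array could be left out, and all 4 lay on 1 slide. Signals near background, at 10.7 to 17.1 intensity units, limit the dim members.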

Other observations

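Enzymes of glutamine and glutamate metabolism included a pair that ran in opposite ways. Of 8 with a ratio between genotypes after AOM, 2 were over 2-fold higher in Pla2g3-/-, 1 was lower and the median was 0.33 on the log2 scale, where 15.1% of all genes were higher and 12.9% lower, and with vehicle 0 of 8 were past 2-fold. *Gls2*, a glutaminase best known from liver, gave 8.64% of the 75th percentile in Pla2g3+/+ and 8.92% in Pla2g3-/- with vehicle and 57.3% and 9.20% after AOM, so that 1 array was high. *Gpt*, which makes alanine and 2-oxoglutarate, gave 469% and 459% with vehicle and 37.2% and 249% after AOM, and *Got1*, the cytosolic aspartate aminotransferase, was 2.45-fold higher in Pla2g3-/- after AOM.

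Of 18 genes through which mTORC1 senses amino acids, each with a ratio between genotypes after AOM, 3 were over 2-fold higher in Pla2g3-/- and 0 were lower, with a median of −0.03, where 15.1% and 12.9% of all genes were. *Sesn1*, a relative of the leucine sensor, gave 171% and 178% with vehicle and 84.8% and 188% after AOM. With AOM, 4 of 17 were lower in Pla2g3+/+ and 4 of 18 in Pla2g3-/-, where 22.4% and 15.1% of all genes were, and 0 were higher in either.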
